A study of Homo sapiens with 6 samples.

Results

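The 57 genes described here lie on the long arm of chromosome 9, from cytoband 9q22 to 9q34, and were measured in SiHa, a human cell line established from a squamous carcinoma of the cervix. They were chosen by position, with the values of these same libraries already known. The difference between the groups was thus in view when the members were picked, and it is given below as a description, with no test on the members as a set. Calls of single members are printed, and nothing is read from their counts. Each of the 57 members was found in the deposited table of 35544 loci, and all 57 were among the 10295 loci with at least 1 FPKM (fragments mapped, scaled by the length of the transcript and the depth of the library) in 3 or more of the 6 libraries. In the GENCODE 29 annotation on GRCh38 their leftmost coordinates run from 92000087 (SPTLC1) to 132891348 (TSC1). The list spans most of the distal long arm but not its last stretch beyond TSC1, and it is no full set of that span. Another 154 tested loci lie between its first and last member.

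PolyA RNA was sequenced from SiHa cells transfected with a vector plasmid (3 libraries, called vector) or a plasmid carrying hsa_circ_0005358, a circular RNA (3 libraries, called circ or circ_0005358), all collected 72 h after transfection. Spellings of its name with differing digits were taken as the same RNA, and the series asks which mRNAs lie downstream of it. Since no label ties the numbered libraries to separate cultures, a p-value here is set against a spread between libraries that may be technical. The plasmids were transfected, and the share of cells that took them up was not analysed here. FPKM is relative to the whole library, so a higher value is a larger share of the RNA and not a count of molecules per cell, and fewer cells of a kind and less RNA per cell cannot be told apart.

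FPKM values summed to between 138863.6 and 145278.1 per library. The number of sequenced fragments is not in the table, but the value of a single fragment on rows with 1 transcript put the relative depth of 5 libraries at 93.8% or more of the deepest and that of circ 2 at 71.4%. Vector 3 had the most loci above 0, 27803 against 23227 to 23834 in the other 5. KRT7, KRT8 and KRT18 were present in every library and lower in every circ library than in any vector library. KRT7 was at 333 to 361 FPKM with vector and 259 to 288 FPKM with circ. KRT8 was at 174 to 185 and 74.4 to 91.6 FPKM, and KRT18 at 139 to 146 and 88.4 to 99.5 FPKM. Over all libraries the epithelial markers KRT19 and EPCAM were low, at 1.19 to 2.17 and 1.04 to 2.52 FPKM. Markers of leukocytes, endothelium and red cells stayed at or below 0.490 FPKM. KRT17 was at 584 to 666 FPKM with vector and 192 to 215 FPKM with circ, and CDH1 at 8.78 to 16.8 and 0.883 to 1.05 FPKM. LUM, a fibroblast matrix gene, was at 6.35 to 9.21 and 1.11 to 1.69 FPKM, while COL1A1 and COL1A2 stayed at or below 0.794 FPKM. Whether these markers have a part in the values of the 9q genes was not tested.

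Genes that share a chromosome arm need share nothing else. The members work in unrelated parts of the cell: some repair or package DNA, some form the nuclear pore or handle RNA, some fold proteins in the endoplasmic reticulum, and others make lipids, carry electrons or hold the cytoskeleton. What neighbours do have in common is their DNA template and its chromatin, and a pair of genes that start back to back can share a promoter. For that reason the members are described by role, then by place, and then beside the genes that work with them but are encoded on other chromosomes.

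The RefSeq promoter table (GRCh38.p14) held 51 of the 57 members; COQ4, GLE1, NCBP1, PSMB7, TOR1A and TOR1B were not matched. The 250 bases before the start are printed below for 4 members that the results return to, 5′ to 3′ on the gene's own strand. HSPA5, the abundant endoplasmic reticulum chaperone BiP, is shown because it carries the long stress response element of its compartment. ERP44 and SEC61B, which serve the same compartment, are shown as a member that shares its start region with another member and as the member with the highest fold. ANP32B, a histone chaperone, is shown as a called member with CACGTG. Capitals mark CCAAT and CCACG with the 9 bases of any kind between them in HSPA5, CCAAT and GGGCGG on either strand in ERP44 and SEC61B, and CACGTG and GGGCGG on either strand in ANP32B, where overlapping matches run together.
HSPA5 (GRCh38.p14, chr9:125241344-125241593, minus strand): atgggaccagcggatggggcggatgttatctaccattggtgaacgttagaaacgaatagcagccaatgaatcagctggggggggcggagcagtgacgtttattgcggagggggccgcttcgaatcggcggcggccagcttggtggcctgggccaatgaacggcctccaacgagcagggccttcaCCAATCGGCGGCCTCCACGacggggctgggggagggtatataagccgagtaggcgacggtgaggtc
ERP44 (GRCh38.p14, chr9:100099001-100099250, minus strand): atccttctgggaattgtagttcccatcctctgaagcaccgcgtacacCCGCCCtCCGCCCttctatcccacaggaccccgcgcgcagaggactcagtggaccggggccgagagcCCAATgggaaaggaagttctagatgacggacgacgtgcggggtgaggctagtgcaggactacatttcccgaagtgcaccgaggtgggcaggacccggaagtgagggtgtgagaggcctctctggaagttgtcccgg
SEC61B (GRCh38.p14, chr9:99222032-99222281, plus strand): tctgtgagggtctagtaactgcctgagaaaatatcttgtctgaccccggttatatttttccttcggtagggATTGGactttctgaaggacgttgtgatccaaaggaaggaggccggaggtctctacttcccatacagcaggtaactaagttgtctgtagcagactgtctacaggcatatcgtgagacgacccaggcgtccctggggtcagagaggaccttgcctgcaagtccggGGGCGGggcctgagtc
ANP32B (GRCh38.p14, chr9:97983091-97983340, plus strand): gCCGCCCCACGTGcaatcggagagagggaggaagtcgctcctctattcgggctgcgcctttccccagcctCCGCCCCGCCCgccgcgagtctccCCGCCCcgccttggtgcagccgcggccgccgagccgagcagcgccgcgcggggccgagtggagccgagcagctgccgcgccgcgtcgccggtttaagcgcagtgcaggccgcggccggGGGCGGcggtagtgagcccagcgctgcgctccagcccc

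The 19-base endoplasmic reticulum stress response element (CCAAT, 9 bases of any kind, CCACG), searched on both strands, was found in 1 of the 51 member promoters, that of HSPA5, and in 22 of 27305 promoters of the table (0.0806%). The GC box GGGCGG was in 40 of 51 member promoters (78.4%) and in 42.3% of all promoters, and the ETS core CCGGAA in 16 of 51 (31.4%) and 14.8%. CCAAT stood in 20 of 51 (39.2%) against 33.0% of all, and it is also contained in the longer element. The E-box CACGTG was in 5 of 51 (9.80%: ANP32B, FUBP3, NOL8, NUP188 and TEX10) and in 6.49% of all. TATAAA was in 3 of 51 (5.88%: AK1, SPTAN1 and TXN) and in 11.1% of all. The median GC content was 68.8% in the members and 58% over the table, which also holds genes that were not tested here. A match is a run of letters in this window and shows no binding.

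With circ_0005358 the levels of most members were slightly higher than with vector. The median fold change on the log2(FPKM + 1) scale was 0.26 (quartiles 0.16 and 0.37, range -0.26 to 1.14), against 0.022 (quartiles -0.15 and 0.20) over all 10295 tested loci. As a ratio of mean FPKM the median member stood at 1.23, and the median tested locus at 1.02. The fold change was above 0 for 53 of the 57 members (the share over all tested loci is 53%) and below 0 for SPTAN1, BICD2, ABL1 and FAM120A. In 30 members every circ library was above every vector library (19.8% of all tested loci), in 1, SPTAN1, every circ library was below (15.9%), and in 26 the groups overlapped. The quartiles of the members lay 0.21 apart on the log2 scale and those of all tested loci 0.35 apart.

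Under limma with Benjamini-Hochberg adjustment over all tested loci, 11 members were called higher at an adjusted p under 0.05 (6.41% of all tested loci were called higher) and 0 were called lower (4.96%). The 11 are AK1, ANP32B, CTNNAL1, ERP44, HSDL2, INVS, NUP188, RNF20, SLC27A4, SMC2 and TEX10. At an unadjusted p under 0.05, limma placed 28 members higher and 1 lower. The share over all tested loci at that threshold is not given here, so these 2 counts cannot be judged. Nothing is read from these counts, since the same contrast was in view when the members were picked. Leaving out 1 library left 4, 4 and 5 called members (without vector 1, 2 and 3) and 7, 7 and 4 (without circ 1, 2 and 3). Of all 10050 to 10113 loci tested in these fits, 316, 304, 392, 384, 385 and 274 were called higher, in the same order. A fit with the replicate number as a block left 3 members, which are ANP32B, CTNNAL1 and ERP44, and 129 of all 10295 loci called higher. Rows for CTNNAL1 (joined with TMEM245), AK1 (joined with ST6GALNAC6 and AL157935.2) and NUP188 (joined with PHYHD1 and AL672142.1) carry several gene names, and without these 3 the median is 0.25 and 8 members are called.

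**Figure D1:**
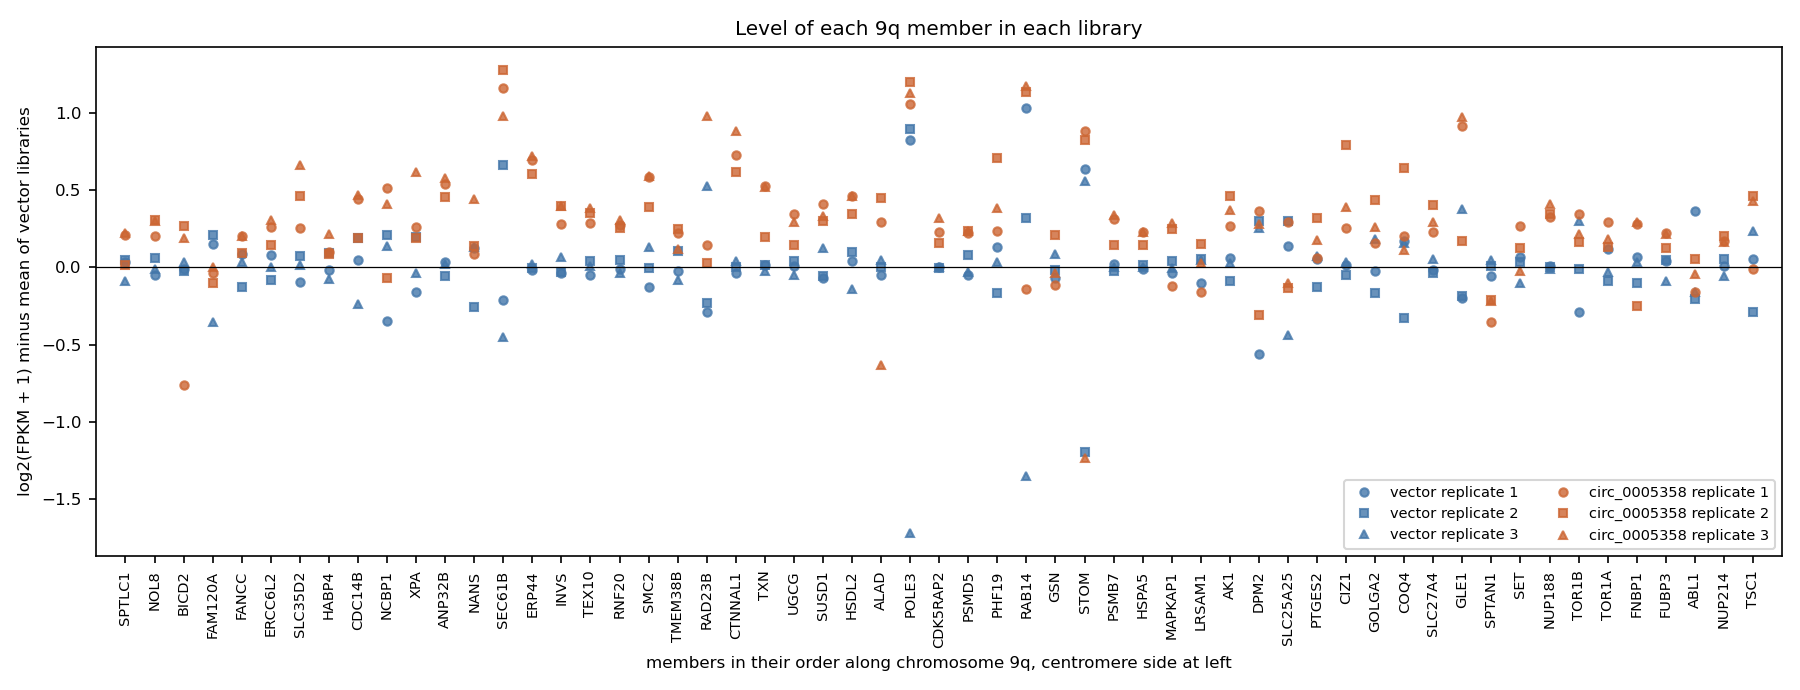
Level of each of the 57 members in each of the 6 libraries, as log2(FPKM + 1) minus the mean of the 3 vector libraries, with members in their order along 9q from the centromere side. Most orange points (circ) sit a little above 0, the spread is widest for POLE3, RAB14 and STOM, and SPTAN1 is the member whose circ points all lie below its vector points.

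The offset was also read in each circ library, for members picked with this same contrast in view. Against the mean of the vector libraries, the median member stood at 0.26, 0.23 and 0.30 on the log2 scale in circ 1, 2 and 3, and 48, 51 and 50 of the 57 members were above that mean. Of all 10295 tested loci, 5368, 5686 and 5707 were above it. In vector 1, 2 and 3 the median of the members was -0.00050, 0.00083 and 0.018. These are held near 0 in part by the reference, which is the mean of the same 3 libraries. Over the 9 pairs of a vector and a circ library, the median member ratio was 1.20 to 1.27 and between 46 and 51 members were higher, while the median ratio of all tested loci was 0.993 to 1.03. Circ 2, the library with the lowest relative depth, had the lowest of the 3 circ medians of the members. Over all tested loci it had the highest, 0.040 against 0.013 in circ 1 and 0.036 in circ 3. The 9 pairs share libraries and are no independent checks.

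Among the 9 members that maintain the genome and its chromosomes the median fold change was 0.37, all 9 were above 0 (53% of all tested loci), and in 6 every circ library was above every vector library (19.8% of all tested loci). SMC2, a core subunit of the condensin complexes that compact chromosomes, was at 10.2, 11.1 and 12.3 FPKM in the vector libraries and 17.2, 14.99 and 17.4 FPKM in the circ libraries, which is 1.48-fold (0.52 on the log2 scale, SE 0.10). All 3 circ libraries lay above the highest vector library. CIZ1, a zinc finger protein of DNA replication, was at 11.8, 11.3 and 11.99 FPKM with vector and 14.1, 20.98 and 15.6 FPKM with circ_0005358 (0.48 on the log2 scale), with circ 2 well above the other circ libraries. XPA and RAD23B both serve nucleotide excision repair, XPA in checking the damage and RAD23B as the partner of XPC. RAD23B was uneven in both groups at 30.2, 31.5 and 54.03 FPKM with vector and 41.2, 37.95 and 74.5 FPKM with circ_0005358, so its difference of 0.38 has an SE of 0.34. XPA was at 2.04, 2.91 and 2.32 FPKM with vector and 3.07, 2.87 and 4.22 FPKM with circ_0005358 and its groups overlapped. CDC14B, a phosphatase, is the member that only just passed the filter, with 4 libraries at 1 FPKM or more: it was at 0.932, 1.14 and 0.583 FPKM with vector and 1.54, 1.13 and 1.59 FPKM with circ_0005358. Of its vector libraries only vector 2 reached 1 FPKM, so CDC14B needed its circ libraries to pass the filter. A difference between groups was thus partly built into its being tested. Its fold change of 0.37 is also the median of this group. No member fell outside the filter, and the next lowest, SUSD1, was at 1.20 FPKM or more in all 6 libraries. FANCC of the Fanconi core complex (0.17), ERCC6L2 of the SNF2 helicase family (0.24) and RNF20, a ubiquitin ligase for histone H2B (0.28), had all circ libraries above all vector libraries, with ratios of 1.16, 1.26 and 1.24.

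The 12 members of the RNA, nuclear pore and chromatin group had a median fold change of 0.28, 11 were above 0 (53% of all tested loci), and in 7 every circ library was above every vector library (19.8%). ANP32B was at 57.3, 53.96 and 56.9 FPKM in the vector libraries and 82.1, 77.2 and 84.3 FPKM in the circ libraries, a ratio of 1.45 (0.53 on the log2 scale, SE 0.056). The gap between its groups was many times the spread within either. SET, a histone chaperone of the same broad class and the most abundant member of this group, was at 146, 143 and 129.9 FPKM with vector and 168, 152 and 137 FPKM with circ_0005358 (0.12), and its groups overlapped because circ 3 lay below 2 vector libraries. SET has 19 pseudogenes named after it in GENCODE 29 and ANP32B has 3, and fragments from near-identical copies may have been split between rows. GLE1, which releases mRNA at the pore, was at 16.6, 16.7 and 25.2 FPKM with vector and 36.99, 21.7 and 38.5 FPKM with circ_0005358 (0.69, SE 0.28), with circ 2 below vector 3. NUP188, of the pore's inner ring, was at 28.5, 28.4 and 28.1 FPKM with vector and 35.7, 36.3 and 38.1 FPKM with circ_0005358 (0.36), on a row that also carries PHYHD1. NUP214, on the cytoplasmic face of the pore, was at 9.01, 9.33 and 8.58 FPKM with vector and 10.2, 10.5 and 10.2 FPKM with circ_0005358 (0.18), a smaller difference with little spread. FAM120A, an RNA-binding protein, was the group's member below 0, at 30.1, 31.4 and 20.9 FPKM with vector and 26.3, 25.1 and 27.1 FPKM with circ_0005358 (-0.046), with vector 3 as the lowest library. The other 6 ran from 0.13 for the RNA-binding HABP4 to 0.44 for PHF19, an accessory protein of Polycomb. TEX10 and NOL8, both of the nucleolus and ribosome assembly, stood at 0.34 and 0.27, FUBP3 at 0.19, and the cap-binding NCBP1 at 0.28 with overlapping groups.

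The 10 members of the endoplasmic reticulum, Golgi and glycosylation group had a median of 0.23, all 10 were above 0 (53% of all tested loci), and in 6 every circ library was above every vector library (19.8%). SEC61B, a small subunit of the channel through which new proteins enter the endoplasmic reticulum, had the highest fold change of all members. It was at 12.1, 23.02 and 10.1 FPKM in the vector libraries and 32.96, 35.7 and 28.9 FPKM in the circ libraries, a ratio of 2.16 (1.14 on the log2 scale, SE 0.30). Vector 2 was the highest of its group, and the lowest circ library was still above it. ERP44, which retains proteins in the early secretory pathway through thiol bonds, was at 12.4, 12.6 and 12.8 FPKM in the vector libraries and 21.04, 19.7 and 21.5 FPKM in the circ libraries, a ratio of 1.65 (0.68, SE 0.054). Its vector libraries were nearly level with each other, and the groups were far apart. HSPA5, by far the most abundant of the group, was at 129, 131 and 129.8 FPKM with vector and 152, 143 and 152 FPKM with circ_0005358 (0.20, SE 0.046), a difference of 14.9% with no overlap. SLC35D2, a nucleotide-sugar transporter, was at 3.89, 4.49 and 4.28 FPKM with vector and 5.23, 6.19 and 7.25 FPKM with circ_0005358 (0.46). DPM2, a regulatory subunit of dolichol-phosphate mannose synthase, was at 6.09, 11.9 and 11.5 FPKM with vector and 12.5, 7.44 and 11.7 FPKM with circ_0005358 (0.11, SE 0.30), with 1 low library in each group.

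TOR1A and TOR1B encode torsins, ATPases of the endoplasmic reticulum lumen, and lie next to each other with their 3′ ends facing, TOR1B at 129803153-129811281 on the plus strand and TOR1A at 129812944-129824134 on the minus strand. TOR1A was at 8.14, 6.90 and 7.25 FPKM with vector and 9.30, 8.22 and 8.56 FPKM with circ_0005358 (0.20), and its groups did not overlap. TOR1B was at 6.58, 8.19 and 10.4 FPKM with vector and 10.7, 9.35 and 9.76 FPKM with circ_0005358 (0.24), with vector 3 above circ 2 and circ 3. These neighbours differed by less than the SE of TOR1B, which is 0.16. The group's remaining members are GOLGA2, the Golgi matrix protein GM130 (0.28), NANS, the sialic acid synthase (0.22), and TMEM38B, an ion channel of the reticulum (0.20). TRIM14, which is no member and stood higher by far, has its leftmost base at 98069275 inside the span of NANS (98056739-98083075), and whether fragments were assigned by strand is not given in the sources used here. The same holds for 2 pairs of members that overlap on opposite strands: the span of CDC14B begins at 96490241 inside HABP4 (96450201-96491336), and that of GSN begins at 121207794 inside RAB14 (121178137-121223014).

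The 10 members of lipid, cofactor and energy metabolism had a median of 0.29, all 10 were above 0 (53% of all tested loci), and in 5 every circ library was above every vector library (19.8%). TXN, the cytosolic thioredoxin that reduces protein disulfides, was the most abundant of all 57 members, at 213, 213 and 207 FPKM in the vector libraries and 304, 242 and 303 FPKM in the circ libraries (0.42, SE 0.10). Circ 2 was the lowest circ library and still above all vector libraries. SPTLC1, a subunit of serine palmitoyltransferase that starts sphingolipid synthesis, was at 28.1, 28.4 and 25.7 FPKM with vector and 31.7, 27.6 and 32.1 FPKM with circ_0005358 (0.15), and its groups overlapped. UGCG, which adds glucose to ceramide further along that pathway, was at 10.97, 11.3 and 10.5 FPKM with vector and 14.1, 12.2 and 13.6 FPKM with circ_0005358 (0.26), with no overlap. HSDL2, a peroxisomal enzyme (0.42), SLC27A4, a fatty acid transporter (0.31), and AK1, an adenylate kinase on a joined row (0.37), had every circ library above every vector library. SLC25A25, a mitochondrial carrier, was at 3.93, 4.51 and 2.30 FPKM with vector and 4.49, 3.08 and 3.17 FPKM with circ_0005358, and its group means were nearly equal (0.021 on the log2 scale). COQ4 of coenzyme Q synthesis (0.32) and PTGES2, a prostaglandin E synthase (0.19), had overlapping groups.

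Of the 6 members of the proteasome, ubiquitin and membrane traffic group, 5 were above 0 (53% of all tested loci), the median was 0.19, and in 2 every circ library was above every vector library (19.8%). Those were PSMB7, a catalytic subunit of the proteasome core, at 37.6, 36.6 and 37.2 FPKM with vector and 46.4, 41.1 and 47.2 FPKM with circ_0005358 (0.26), and PSMD5, a chaperone for assembling its regulatory particle, at 29.01, 31.9 and 29.5 FPKM with vector and 35.3, 35.5 and 35.6 FPKM with circ_0005358 (0.23). LRSAM1, a ubiquitin ligase, was at 1.65, 1.95 and 1.93 FPKM with vector and 1.54, 2.15 and 1.89 FPKM with circ_0005358 (0.0062), which is no difference beyond its SE of 0.10. The other 3, RAB14, STOM and BICD2, each had a library far from the rest and are described further on.

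The 6 members of the cytoskeleton, centrosome and cilium group had the widest quartiles of the 7 groups (0.29 apart), with a median of 0.17 and a range from -0.26 to 0.74. CTNNAL1, or alpha-catulin, was at 10.4, 10.7 and 11.1 FPKM in the vector libraries and 18.4, 17.04 and 20.7 FPKM in the circ libraries, a ratio of 1.74 (0.74, SE 0.081), on a row it shares with TMEM245. SPTAN1, the alpha chain of non-erythroid spectrin, went the other way, at 54.8, 57.3 and 58.99 FPKM in the vector libraries and 44.4, 49.2 and 48.97 FPKM in the circ libraries, a ratio of 0.833 (-0.26, SE 0.063). All 3 circ libraries of SPTAN1 lay below all 3 vector libraries, and it is the member with the lowest fold change. It was called lower once the libraries were rescaled to the same sum, centred on their medians or quantile-normalized, and in none of the other alternatives. INVS, or inversin, a protein of the primary cilium, was at 1.99, 1.997 and 2.21 FPKM with vector and 2.73, 3.04 and 3.04 FPKM with circ_0005358 (0.36). CDK5RAP2, which anchors microtubule nucleation at the centrosome, was at 9.16, 9.16 and 9.18 FPKM with vector and 10.9, 10.3 and 11.7 FPKM with circ_0005358 (0.23). GSN, or gelsolin, which severs actin filaments, was at 4.70, 4.92 and 5.34 FPKM with vector and 4.52, 5.90 and 4.82 FPKM with circ_0005358 (0.017), and FNBP1, which bends membranes, was at 8.19, 7.15 and 7.97 FPKM with vector and 9.63, 6.36 and 9.72 FPKM with circ_0005358 (0.11). The groups of GSN and FNBP1 overlapped.

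In the remaining 4 members, of signalling and other roles, the median was 0.22. MAPKAP1, or SIN1, a subunit of the second TOR complex, was the most abundant at 10.9, 11.6 and 11.2 FPKM with vector and 10.2, 13.5 and 13.9 FPKM with circ_0005358 (0.14), with circ 1 below all vector libraries. TSC1, the brake on the first TOR complex, was at 4.12, 3.05 and 4.80 FPKM with vector and 3.90, 5.78 and 5.65 FPKM with circ_0005358 (0.29), and its groups overlapped. ABL1, a tyrosine kinase, was at 11.6, 7.47 and 7.77 FPKM with vector and 7.76, 9.16 and 8.49 FPKM with circ_0005358 (-0.048), where vector 1 alone stood above the circ libraries. SUSD1, a sushi domain protein of low level, was at 1.20, 1.22 and 1.52 FPKM with vector and 2.07, 1.85 and 1.91 FPKM with circ_0005358 (0.35), with no overlap.

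In 5 members a single library stood more than 2-fold from both others of its group (8.77%, against 15.1% of all tested loci). POLE3, a small histone-fold subunit of DNA polymerase epsilon, was at 54.1, 56.8 and 8.45 FPKM in the vector libraries and 63.8, 70.5 and 66.9 FPKM in the circ libraries. Vector 3 alone was low, and the log2 difference was 1.13 with it and 0.27 without it. RAB14, a GTPase of endosome and Golgi traffic, was at 52.98, 31.9 and 9.32 FPKM with vector and 22.9, 57 and 58.4 FPKM with circ_0005358, with low values in vector 3 and circ 1. Its log2 difference of 0.72 ran from 0.045 without vector 3 to 1.24 without vector 1. STOM, a membrane protein and the most abundant of its group, was at 144, 39.6 and 136 FPKM with vector and 171, 164 and 38.6 FPKM with circ_0005358. Its difference of 0.16 ran from -0.44 without vector 2 to 0.85 without circ 3. BICD2, a dynein adaptor, was at 9.74, 9.69 and 10.1 FPKM with vector and 5.41, 12.1 and 11.4 FPKM with circ_0005358, and its difference of -0.10 ran from -0.28 without circ 2 to 0.23 without circ 1. ALAD, an enzyme of heme synthesis, was at 6.81, 7.07 and 7.32 FPKM with vector and 8.87, 10.02 and 4.21 FPKM with circ_0005358, and its difference of 0.038 ran from -0.17 without circ 2 to 0.37 without circ 3. Without these 5 the median of the other 52 members is 0.27, with the 11 called members still among them.

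**Figure D2:**
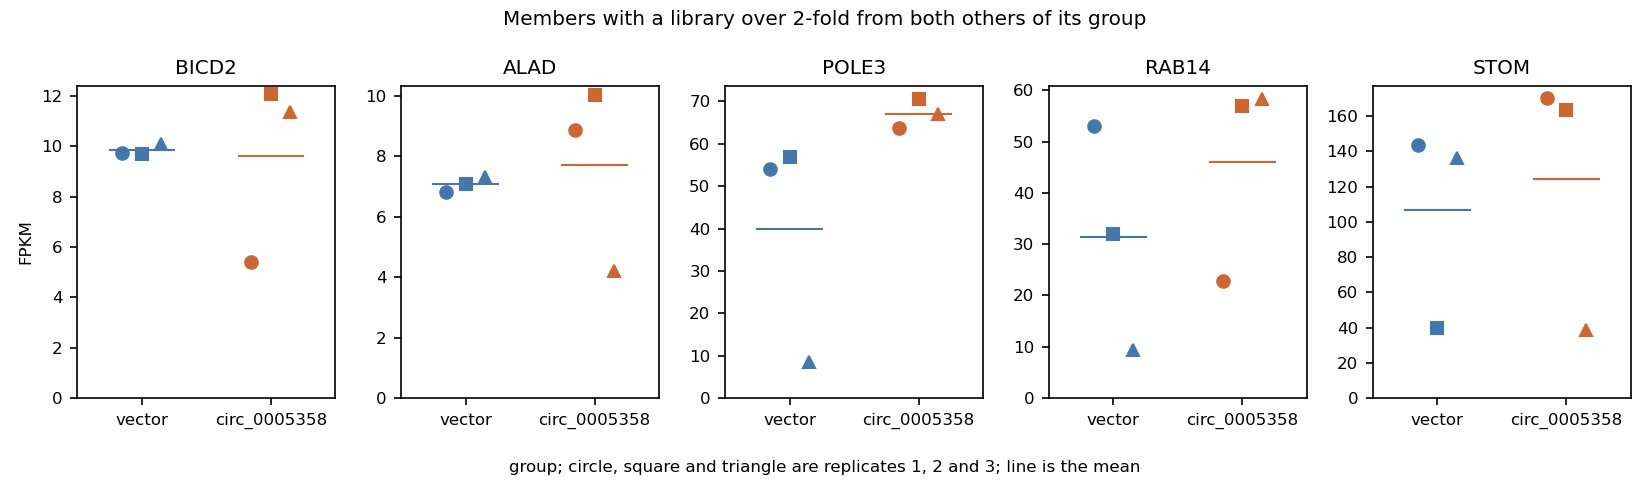
FPKM of POLE3, RAB14, STOM, BICD2 and ALAD in the 6 libraries, with circles, squares and triangles for replicates 1, 2 and 3 and a line at each group mean. The libraries that sit far below the others of their group differ from gene to gene, as vector 3 at 8.45 FPKM for POLE3 and circ 3 at 4.21 FPKM for ALAD.

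Level, place and length were set beside the fold changes, although the choice of members used place and a minimum level. Across the 57 genes, which share the same 6 libraries, the fold change and the log2 mean FPKM had a Pearson r of 0.18 (Spearman rho 0.15), the fold change and position of the start along the arm -0.18 (rho -0.17), and the fold change and the log2 gene length -0.27 (rho -0.18). By the transcription start on GRCh38, the median was 0.25 for the 14 members between 90 and 100 Mb, 0.37 for 8 between 100 and 110 Mb, 0.38 for 6 between 110 and 120 Mb, 0.23 for 24 between 120 and 130 Mb and 0.18 for 5 between 130 and 140 Mb. Each of these medians was above that of all tested loci. Called higher were 1, 6, 1, 3 and 0 of them in that order, beside 6.41% of all tested loci, and the replicate block left 3 in all.

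Members that start back to back with another gene give a closer view of place. In RefSeq, 15 members had a head-to-head partner within 1000 bases, and for 7 of them the partner was a tested locus. ERP44 and INVS, whose starts are 243 bases apart, are both members and stood at 0.68 and 0.36. SEC61B and ALG2, 340 bases apart, differed in sign: ALG2, a mannosyltransferase, was at 3.94, 4.61 and 4.66 FPKM with vector and 1.59, 4.64 and 3.32 FPKM with circ_0005358 (-0.44). The other pairs were NOL8 with CENPP (0.055), LRSAM1 with RPL12 (0.21), NUP188 with DOLK (0.25) and FNBP1 with GPR107 (0.16), where the value is that of the partner. DOLK is listed at 0 in vector 3 and in circ 2, so its value is uncertain.

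The other tested loci of chromosome 9 were taken by position, among loci that pass the filter. The members that bound the stretches were picked with these values known, so the other loci are no independent check. Between the first and the last member lie 154 other tested loci, and their median fold change was 0.24, with 123 above 0 (53% of all tested loci). Of these 154, limma called 33 higher (6.41% of all tested loci) and 1, ABCA1, lower (4.96%), and in 73 every circ library was above every vector library (19.8%). These 34 calls came to between 7 and 21 when 1 library was left out and to 5 with the replicate block. Some of the loci called higher, among them PAPPA, LPAR1 and PTGS1, passed the filter through their circ libraries alone. Beyond the last member, toward the end of the arm, the median of 61 loci was 0.30, with 15 called higher and 1, CLIC3, lower. On the centromere side of 9q the median of 51 loci was 0.11, with 5 called higher (GNA14, AL354733.3, AGTPBP1, GAS1 and S1PR3) and 2 lower. On the short arm, 9p, the median of 108 loci was -0.067, with 39 above 0 (53% of all tested loci), 4 called higher (SLC1A1, IFT74, ACO1 and GRHPR) and 5 lower (ERMP1, KDM4C, SH3GL2, DENND4C and DDX58). By these medians the distal long arm was higher in members and other loci alike, the centromere side less so, and 9p was slightly below 0. That order rests on loci that pass the filter. With every locus above 0 in any library counted, the median was 0.012 over 459 loci between the members and 0.018 over 167 beyond the last member. It was -0.0071 over 273 on the centromere side and -0.021 over 387 on 9p. All 57 members pass the filter, so their median of 0.26 could not change and is no comparison with these values. Genes in these brackets other than the 10 described next are named because the counts are small, after their values were seen. No test of a difference between the stretches was made, and adjacent loci are not independent.

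The order of the stretches was also read in each library. In circ 1, 2 and 3 the median against the vector mean was 0.25, 0.25 and 0.28 for the other loci between the members, 0.23, 0.42 and 0.31 beyond the last member, 0.17, 0.066 and 0.15 on the centromere side and -0.070, -0.035 and -0.082 on 9p. Circ 2 had the highest value of the 3 beyond the last member and the lowest on the centromere side. Among the 23 chromosomes with tested loci, chromosome 9 as a whole had the second highest median, 0.19 over 431 loci, after chromosome 21 with 0.20 over 130 loci and before chromosome 15 with 0.16 over 343 loci. The lowest was chromosome 4 with -0.065. The 9825 tested loci with a mapped position off chromosome 9 had a median of 0.017, which leaves out loci without a position.

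**Figure D3:**
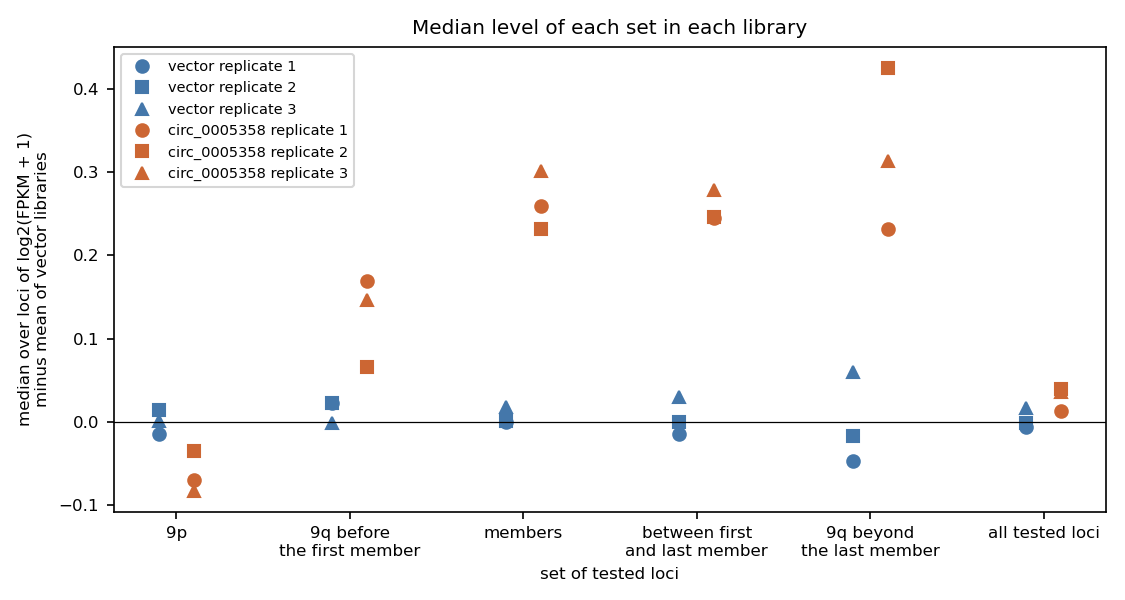
Median of log2(FPKM + 1) against the mean of the vector libraries for 5 stretches of chromosome 9 and for all tested loci, with 1 point per library. The circ points of the members and of the loci between and beyond them lie at 0.23 or more, and those of 9p lie below 0. Vector points, set against their own mean, stay near 0.

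**Figure D4:**
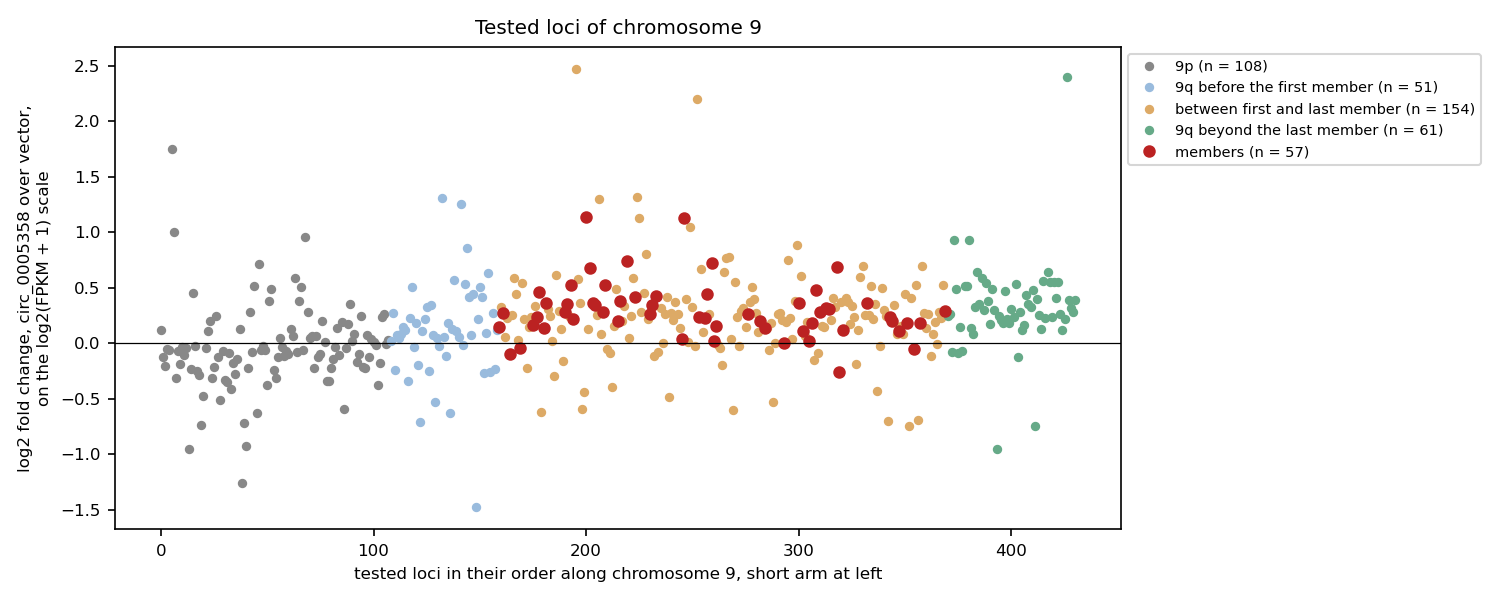
Fold change of every tested locus of chromosome 9 on the log2(FPKM + 1) scale, in order from the short arm at left, with the 57 members in red and the other loci coloured by stretch. Red points run through the same band as their neighbours, mostly between 0 and 0.5, and the grey points of 9p centre slightly below 0.

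Single neighbours moved further than any member. TRIM14, an antiviral signalling adaptor, rose from 1.56, 1.98 and 2.04 to 14.5, 15.5 and 14.4 FPKM (2.47 on the log2 scale, limma adjusted p 0.000233, range 0.000173 to 0.0144 over the alternatives, as for the ranges that follow). PAPPA, a protease that cleaves IGF-binding proteins, rose from 0.286, 0.274 and 0.478 to 5.38, 5.19 and 5.002 FPKM (2.20, limma adjusted p 0.000266, range 0.000202 to 0.0216). SVEP1, a secreted matrix protein, rose from 6.66, 7.39 and 7.72 to 18.7, 20.6 and 19.4 FPKM (1.32, limma adjusted p 0.000771, range 0.000557 to 0.0268). These 3 lie among the members. On the centromere side GNA14, a G protein alpha subunit, rose from 0.950, 0.724 and 1.01 to 4.17, 3.32 and 3.62 FPKM (1.31, limma adjusted p 0.00187, range 0.00151 to 0.0296). On 9p SLC1A1, a glutamate transporter, rose from 0.584, 0.662 and 0.568 to 4.42, 4.005 and 4.84 FPKM (1.75, limma adjusted p 0.000443, range 0.000386 to 0.0278). PAPPA and SLC1A1 passed the filter through their circ libraries alone, so a difference between groups was built into their being tested. GNA14 also needed its circ libraries to pass, since only vector 3 of its vector libraries reached 1 FPKM, so the same limit holds for it.

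The neighbours with the lowest fold changes among called loci were spread over the other stretches. On 9p ERMP1 fell from a mean of 3.01 ± 0.612 to 1.07 ± 0.346 FPKM (SD, n = 3 libraries per group, -0.95, limma adjusted p 0.0230, range 0.0221 to 0.115). Of its circ libraries only circ 3 reached 1 FPKM, so ERMP1 needed its vector libraries to pass the filter. DDX58, the RNA sensor RIG-I, fell from 7.73 ± 0.357 to 4.63 ± 0.177 FPKM (-0.63, limma adjusted p 0.00393, range 0.00347 to 0.0594). SH3GL2, an endophilin, fell from 4.41 ± 0.112 to 2.81 ± 0.192 FPKM (-0.51, limma adjusted p 0.00872, range 0.00707 to 0.0735). On the long arm TLE4, a corepressor near the centromere, fell from 1.15 ± 0.107 to 0.390 ± 0.118 FPKM (-0.63, limma adjusted p 0.0119, range 0.0105 to 0.0592), and it passed the filter through its vector libraries alone. CLIC3, a chloride channel family protein beyond the last member, fell from 5.60 ± 0.633 to 2.98 ± 0.686 FPKM (-0.74, limma adjusted p 0.0391, range 0.0288 to 0.119). All 5 of these calls were lost with the replicate block, ERMP1 in 6 and CLIC3 in 7 of the alternatives run on them.

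Genes that work with the members but lie on other chromosomes give a comparison by function. Over 8 lists with 133 tested genes, the median fold change was 0.057, 87 were above 0 (53% of all tested loci), and 11 were called higher (6.41%) and 0 lower (4.96%). At an unadjusted p under 0.05 limma placed 25, of which 5 were lower. The share over all tested loci at that threshold is not given here, so these 2 counts cannot be judged. The 10 other genes of condensin and DNA polymerase epsilon, the complexes of SMC2 and POLE3, had a median of 0.077 and 0 calls. In the proteasome the median of 28 genes was 0.0090 (-0.026 to 0.027 over the alternatives), with 1 call, PSMD7 (0.28, limma adjusted p 0.0419, range 0.0264 to 0.135 over the alternatives). The members PSMB7, a subunit of that machine, and PSMD5, a chaperone for its assembly, stood at 0.26 and 0.23.

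Of 21 chaperones and stress genes of the endoplasmic reticulum, the compartment of HSPA5, ERP44 and SEC61B, the median was 0.048. PDIA4, a protein disulfide isomerase on chromosome 7, rose from 52.4, 55.4 and 44.8 to 72.9, 71.2 and 79.6 FPKM (0.55, limma adjusted p 0.0238, range 0.0217 to 0.121), and was the 1 call of that list. Of 23 nuclear pore genes the median was 0.12, and the 1 call was NUP205, the inner ring relative of NUP188 on chromosome 7, which rose from 37.9, 38.8 and 37.6 to 53.1, 48.8 and 50.2 FPKM (0.40, limma adjusted p 0.00962, range 0.00751 to 0.0830). The 20 genes of nucleotide excision and Fanconi repair had a median of 0.084. Their 3 calls were FANCI (0.31, limma adjusted p 0.0218, range 0.0148 to 0.116), ERCC3 (0.34, limma adjusted p 0.0277, range 0.0227 to 0.104) and FANCA (0.29, limma adjusted p 0.0368, range 0.0283 to 0.142).

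Among 13 sphingolipid synthesis genes, the pathway of SPTLC1 and UGCG, the median was 0.10 (-0.053 without vector 1 and -0.041 without circ 3). ORMDL1, a regulator of serine palmitoyltransferase, rose from 8.42, 7.98 and 8.002 to 11.9, 14.2 and 15.99 FPKM (0.71, limma adjusted p 0.0155, range 0.0127 to 0.0883), and B4GALT6, which acts on glucosylceramide, rose by 0.53 (limma adjusted p 0.0383, range 0.0222 to 0.144). Of the vector libraries of B4GALT6 only vector 3 reached 1 FPKM, so it needed its circ libraries to pass the filter. For 10 genes of the TSC and TOR complexes, where TSC1 and MAPKAP1 act, the median was 0.027 (-0.0040 without circ 2), with RHEB, the GTPase held down by TSC1, called higher (0.41, limma adjusted p 0.0274, range 0.0172 to 0.110). The 8 genes of the thioredoxin system had the highest median of the lists in the main fit, 0.21, with MSRA (0.59, limma adjusted p 0.0108, range 0.00976 to 0.0912) and PRDX5 (0.37, limma adjusted p 0.0411, range 0.0372 to 0.158) called higher. Its median ran from 0.094 to 0.31 over the alternatives. With at least 5 FPKM it was 0.094, below the sphingolipid (0.13) and nuclear pore (0.11) lists, so the rank did not hold there. All 11 calls were lost with the replicate block, and 9 of them also in some of the fits that leave out a library. No test of a difference between the members and these lists was made.

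**Figure D5:**
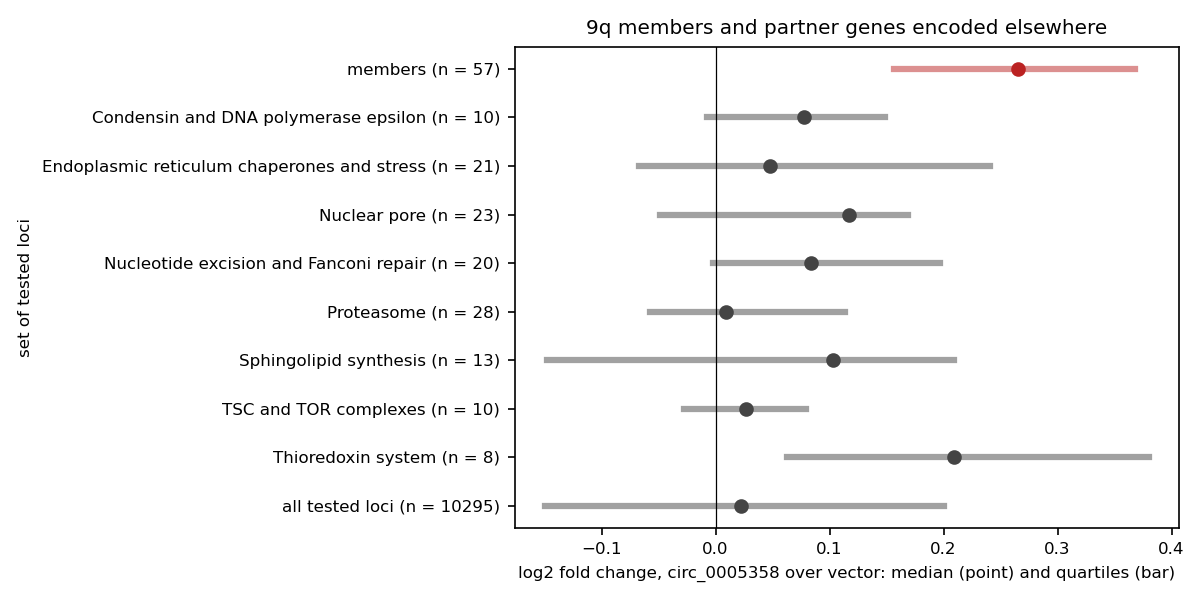
Fold changes on the log2(FPKM + 1) scale of the tested genes in the 8 lists of genes encoded off chromosome 9, beside those of the 57 members, and all 10295 tested loci, with a point at each median and a bar between the quartiles. The medians of the lists lie between 0.0090 and 0.21, that of the members at 0.26 and that of all tested loci at 0.022.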

How the data were processed

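The authors deposited 1 table of FPKM values for 35544 loci in the 6 libraries. HISAT2, Trimmomatic and the build hg19 are named in the submitters' processing notes. For versions, the program behind FPKM, its annotation and its use of strand, nothing is given in the sources used here. The table holds no coordinates: 99.9% of its transcript identifiers are in GENCODE 29, whose GRCh38 positions are printed, and 53 members are on rows with assembled identifiers. A member was any row whose gene names, once split, included it.

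Values were tested as log2(FPKM + 1) for the 10295 loci with at least 1 FPKM in 3 or more libraries, with limma 3.58.1 in R 4.3.3 (two-sided, variance trend, Benjamini-Hochberg over all 10295, threshold 0.05). Fold changes on this scale understate those of low genes. The script was tested on simulated data. Position on 9p or 9q was split at the widest gap between tested loci (41269916 to 61330717).

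Members, roles and lists were chosen with earlier results of these data known. Library values are given for the 10 highest and 10 lowest members by fold change, the most abundant member of each role, TOR1A, TOR1B and CDC14B, with others added after their values were seen. Of neighbours, the 5 highest and 5 lowest called were named, and of each list up to 3 calls with the smallest p. PSMA1, PSMA2, PSMA6, PSMD9, NUP62, NUP98, DNAJB11, ERCC5, TXN2 and SRXN1 had no row of their own. Alternatives were other pseudocounts, filters and scalings, no variance trend, array weights, a replicate block, single-name rows and leaving out each library.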

Additional observations from a re-analysis of the deposited data

How the results depend on the processing

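Of 25 medians reported for members, role groups, stretches and partner lists, 21 kept their sign in the 16 refits. The centromere side of 9q reached -0.0071 without the filter, the proteasome list -0.026, the sphingolipid list -0.053 and the TSC and TOR list -0.0040, and the cause was not tested. In the 18 alternatives for members, 48 of the 57 kept their sign. The other 9 (ABL1, ALAD, BICD2, DPM2, FAM120A, GSN, LRSAM1, SLC25A25 and STOM) changed sign in at least 1, and the cause was not tested. With a pseudocount of 0.1 the median fold change was 0.29 for members, 0.30 for the loci between them and 0.068 for the partner lists, and with 0.5 that of the loci between was 0.27. Without the filter on low values, where 33088 loci were tested, 4 members, 591 loci in all, 14 of the loci between (median 0.012) and 3 partner genes were called. With at least 5 FPKM the loci between had a median of 0.26. SPTAN1 was the 1 member called lower after rescaling to the same sum, centring on the median or quantile normalization, where the member medians were 0.23, 0.25 and 0.24 and the partner medians 0.027, 0.038 and 0.037. Rescaling to the same sum put the median of the loci between at 0.21. Array weights called 17 members higher, and 742 of all 10295 tested loci higher. Leaving out 1 library at a time gave 4 to 7 members higher and 0 lower, with a member median of 0.24 to 0.28. It called 485 to 761 loci in all, 7 to 21 of the loci between (median 0.22 to 0.27) and 2 to 7 partner genes (median 0.044 to 0.056).

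With the replicate number as a block, 3 members, 259 loci in all, 5 of the loci between them and 0 partner genes were called by limma, and 17 partner genes had an unadjusted p under 0.05. The share over all tested loci at that unadjusted threshold is not given here, so the 17 cannot be judged. Deviations of same-numbered libraries from their group means correlated at 0.064, 0.048 and 0.078 over 10295 loci, and those of other combinations at -0.054 to -0.011. Every library correlated best with its own number. The values are small, and deviations within a group sum to 0, so they are not independent of each other. They are at most a hint from the data and not from the labels, so the numbers were not taken as pairs. Fragment counts are unknown, so the counting error of low members such as CDC14B cannot be given.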
